A study of Mus musculus with 30 samples.

Results

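The glucocorticoid receptors and a set of their target genes were followed in cells sorted from the mPFC of Sst and Pvalb reporter mice. The set was chosen by gene symbol and has 10 members of the 23993 genes measured: the receptors Nr3c1 and Nr3c2, the steroid-activating enzyme Hsd11b1, and the target genes Fkbp5, Sgk1, Tsc22d3, Per1, Zbtb16, Klf9 and Ddit4. All 10 members had a mean above 0.4 FPKM over all samples and entered every test. FPKM (reads of a gene corrected for transcript length and library depth) is a value per unit of length, so the levels of different genes can be set side by side. All mice were C57BL/6, 6 to 12 weeks old and heterozygous for a reporter made by crossing Sst-Cre or Pvalb-Cre mice with Ai9 mice, in which Cre switches on tdTomato; the red cells were sorted from the mPFC, and any cell in which Cre was ever active keeps the label. The unstressed libraries came from Sst females (7), Sst males (7) and Pvalb males (7), and the stressed libraries came from Sst males (3) after 14 days of chronic unpredictable stress (CUS). Nothing in the labels says which libraries came from separate mice, so p-values measure the spread between these samples.

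Corticosterone, the stress hormone of mice, enters cells and binds the glucocorticoid receptor (Nr3c1) and, with higher affinity, the mineralocorticoid receptor (Nr3c2). Both rest in the cytoplasm in a complex with Hsp90 chaperones, move to the nucleus when bound, and switch genes on at glucocorticoid response elements or dampen inflammatory genes. Hsd11b1 regenerates active corticosterone inside the cell. Among the induced genes, Fkbp5 encodes a co-chaperone that lowers the receptor's affinity for hormone and so closes a feedback loop, Sgk1 a kinase that regulates ion channels, Tsc22d3 the anti-inflammatory protein GILZ, Per1 a circadian clock protein, Zbtb16 and Klf9 transcription factors, and Ddit4 (REDD1) an inhibitor of mTORC1. In brain, these genes are widely used as a readout of circulating hormone.

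The promoters of the members were examined in RefSeq (GRCm38.p6, the assembly of mm10), from 250 bases before to 50 bases after each annotated start. The windows found covered 8 of the 10 members (16 windows, since several genes have more than 1 start), and none was found for Nr3c1 and Zbtb16. The full palindromic response element, AGAACA followed by any 3 bases and TGTTCT, which reads the same on both strands, was present in 3 of 32851 windows (0.00913%). Of the members, Sgk1 alone had it, and its window is shown for that reason, with the element in capitals. The element began 189 bases before a start of Sgk1, in chr10:21993640-21993939 on the plus strand, and the match was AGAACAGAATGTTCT.
Sgk1: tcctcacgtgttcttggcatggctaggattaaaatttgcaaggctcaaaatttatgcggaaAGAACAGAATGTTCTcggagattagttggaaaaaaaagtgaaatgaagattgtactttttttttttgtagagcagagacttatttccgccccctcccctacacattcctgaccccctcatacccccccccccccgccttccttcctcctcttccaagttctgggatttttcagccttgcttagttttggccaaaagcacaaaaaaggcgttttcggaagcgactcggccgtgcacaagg
The half-site AGAACA, on either strand, was in 19% of all windows and in 4 of the 16 member windows. These were windows of Sgk1 and Tsc22d3, the one with the full element of Sgk1 included. The circadian E-box CACGTG was in 7.15% of all windows and in 3 of the 16 member windows, of Fkbp5, Per1 and Sgk1. The window of Per1 (chr11:69098699-69098998, plus strand), the member called between Sst and Pvalb libraries below, is shown with its E-box in capitals, 166 bases before the start.
Per1: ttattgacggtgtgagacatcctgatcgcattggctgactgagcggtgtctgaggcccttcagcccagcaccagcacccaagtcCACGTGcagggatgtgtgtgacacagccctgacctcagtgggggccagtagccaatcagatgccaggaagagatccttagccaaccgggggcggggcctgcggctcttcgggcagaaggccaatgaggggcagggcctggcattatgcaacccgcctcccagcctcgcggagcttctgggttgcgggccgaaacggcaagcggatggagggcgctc
A match of letters describes the sequence and is no evidence of binding, and response elements of these genes can lie outside such windows.

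The libraries carry several features that touch every result. Male Sst titles are of 2 kinds. The titles with a long, date-like number (called dated here) comprise all 3 CUS libraries (SS04031LL, SS04031RL, SS04031RR) and 3 controls (SS04031R, SST040241L, SST04241LL), and the rest carry a running number (called numbered). Small nucleolar and Cajal body RNAs made up 53.5% to 75.7% of summed FPKM in dated libraries and 1.87% to 8.29% in numbered ones. SST0-M with SST1-M, and PV0-M with PV2-M, were near-identical and were averaged, which left 22 samples of the 24 libraries. Among the dated controls SS04031R stood apart, with an SD of log2 ratios of 0.635 and 0.656 to the others against 0.267 between those. Among the numbered male Sst controls, SST0-M and SST1-M were at 1.00 to 1.01 from SST3-M and SST4-M, which were at 0.444 from each other. They had 12125 and 12124 genes above 0.4 FPKM, against 13875 in SST3-M and 13932 in SST4-M. Their average is 1 of the 3 numbered male samples in the comparisons of title kinds and of the sexes. In 3 Pvalb libraries labelled male (PV1-M, PV4-M, PV5-M), Xist, the RNA of the inactive X chromosome, was at 300 to 333 FPKM, which goes against the label. The markers go against the labelled cell type: the 12 interneuron markers summed to 35.2 to 297 FPKM and the 12 microglia markers to 2721 to 8563 over all samples, and Sst itself was at 0 to 6.02 FPKM in male Sst libraries, 4.18 to 49.3 in female Sst libraries and 12.3 to 30.5 in Pvalb libraries. The levels below are therefore those of the sorted material as a whole, and fewer cells of a type cannot be told apart from less RNA per cell.

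Of the receptors, Nr3c1 was the more abundant in every sample. Its mean over the 22 samples was 29.6 FPKM, above 85.8% of the 14566 genes with a mean above 0.4 FPKM, and that of Nr3c2 was 13.2 FPKM, above 65.1%. The ratio of Nr3c1 to Nr3c2 was 4.04 ± 1.87 (SD, n = 3) in dated Sst male controls, 3.15 ± 0.382 (n = 3) in CUS males, 2.66 ± 1.22 (n = 3) in numbered Sst male controls, 1.91 ± 0.643 (n = 6) in Pvalb males and 1.86 ± 0.530 (n = 7) in Sst females. It ran from 1.20 in a Pvalb library to 6.18 in SS04031R, the sample with the highest Nr3c1 level. The level of Nr3c1 did not overlap between title kinds. All 6 dated samples, at 35.1 to 48.8 FPKM, lay above all 16 numbered samples, at 14.6 to 34.7 FPKM. No other member separated the title kinds across all samples. The share of all genes that did so was not computed. Within unstressed Sst males, 33.5% of all genes tested did not overlap between title kinds. Nr3c1 was highest in dated Sst male controls (41.4 ± 6.89 FPKM, n = 3) and CUS males (37.7 ± 2.18, n = 3), which overlapped, and lower in Pvalb males (27.6 ± 4.04, n = 6), numbered Sst male controls (25.0 ± 9.31, n = 3) and Sst females (24.6 ± 2.10, n = 7), whose ranges overlapped with each other. Nr3c2 was ordered differently, with Pvalb males highest (15.5 ± 3.78 FPKM) and numbered Sst male controls lowest (10.2 ± 4.80), and no neighbours in that order differed by more than their SD.

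Hsd11b1, the enzyme that supplies the receptors with active hormone, had a mean of 12.3 FPKM and group means from 11.1 ± 2.71 FPKM (n = 6) in Pvalb males to 13.8 ± 7.24 (n = 3) in dated Sst male controls. Every pair of neighbours overlapped. Its lowest value, 5.73 FPKM, was in SS04031R, and the other dated controls were at 15.7 and 19.8 FPKM.

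The target genes spanned a wide range of levels. Sgk1 was the most abundant member, with a mean of 75.1 FPKM (above 95.5% of expressed genes) and a range of 46.0 to 119 FPKM over the samples, followed by Tsc22d3 (41.3), Klf9 (15.8), Per1 (14.3), Ddit4 (7.81), Fkbp5 (7.71) and Zbtb16 (1.75 FPKM, above 15.8%). Sgk1 was the steadiest across samples, with a highest value 2.59 times the lowest, and Tsc22d3 the most variable, at 26.4 times. The spread of Tsc22d3 came from 1 averaged pair, SST0-M and SST1-M, at 319 and 320 FPKM, where the next sample (SST4-M) was at 62.2 FPKM. That pair was also highest for Klf9 (38.3 FPKM) and Sgk1 (119 FPKM) and lowest for Nr3c1 (14.6 FPKM) and Nr3c2 (6.80 FPKM). The other averaged pair, PV0-M with PV2-M, had the next highest Klf9 level, 27.9 FPKM, with the other Pvalb libraries at 6.48 to 10.4 FPKM. Ddit4 had group means of 7.40 to 8.14 FPKM, with every pair of neighbours within its SD.

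**Figure D1:**
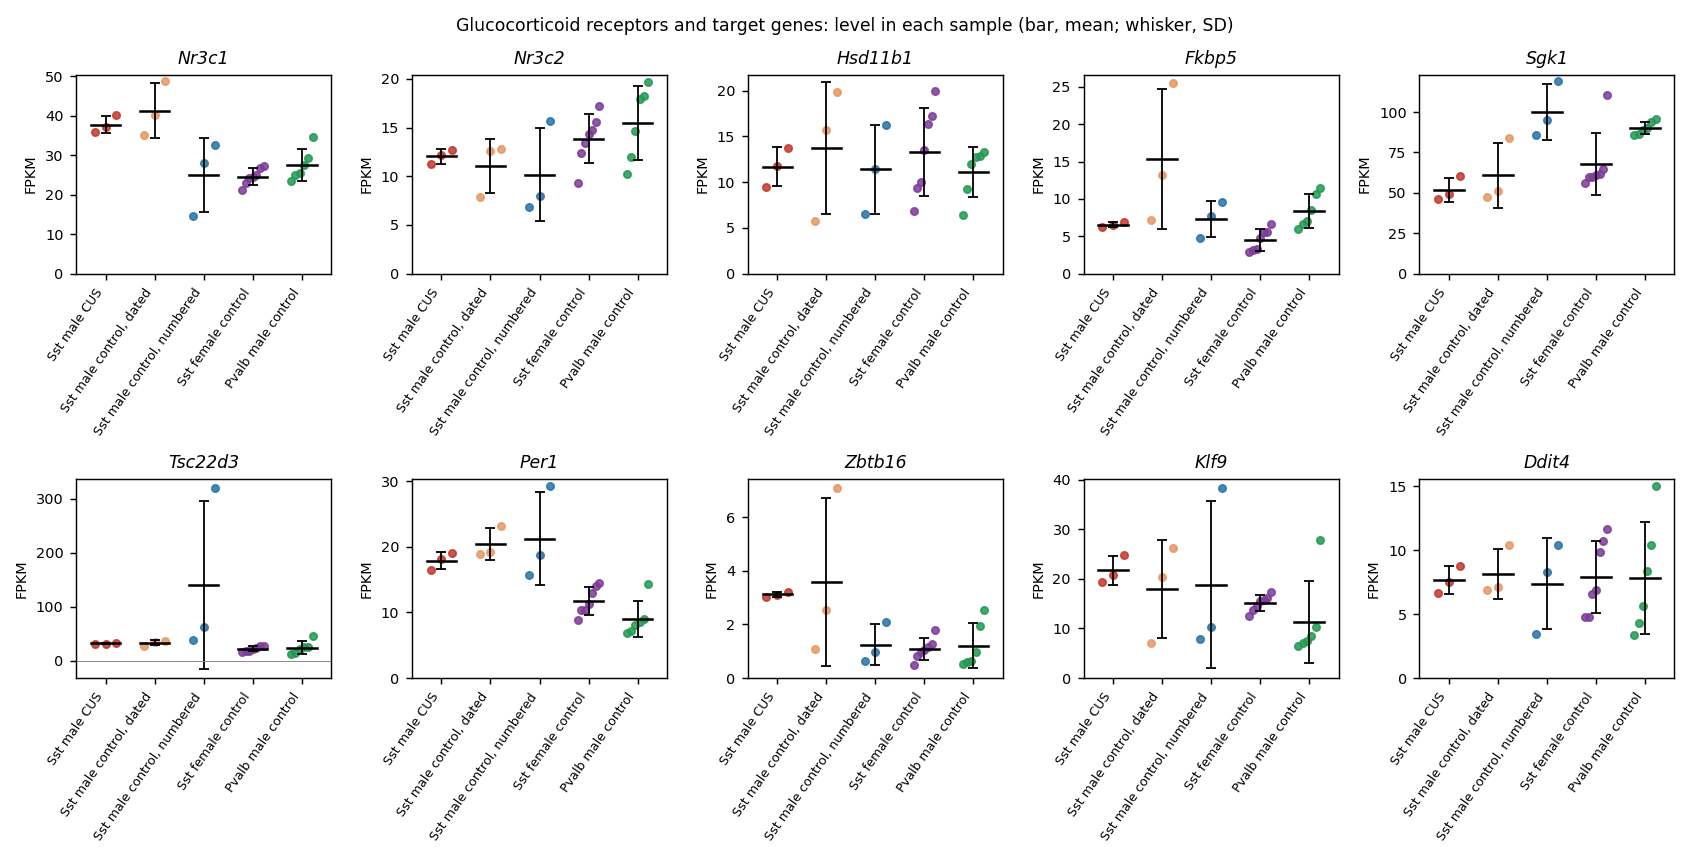
Level in FPKM (vertical axes, linear) of each of the 10 members in each of the 22 samples, by group (horizontal axis); points are samples, bars means and whiskers SDs, with 3, 3, 3, 7 and 6 samples from left to right. Nr3c1 was at 35.1 to 48.8 FPKM in dated and at 14.6 to 34.7 FPKM in numbered samples, and a single point at 320 FPKM sets the scale of Tsc22d3.

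**Figure D2:**
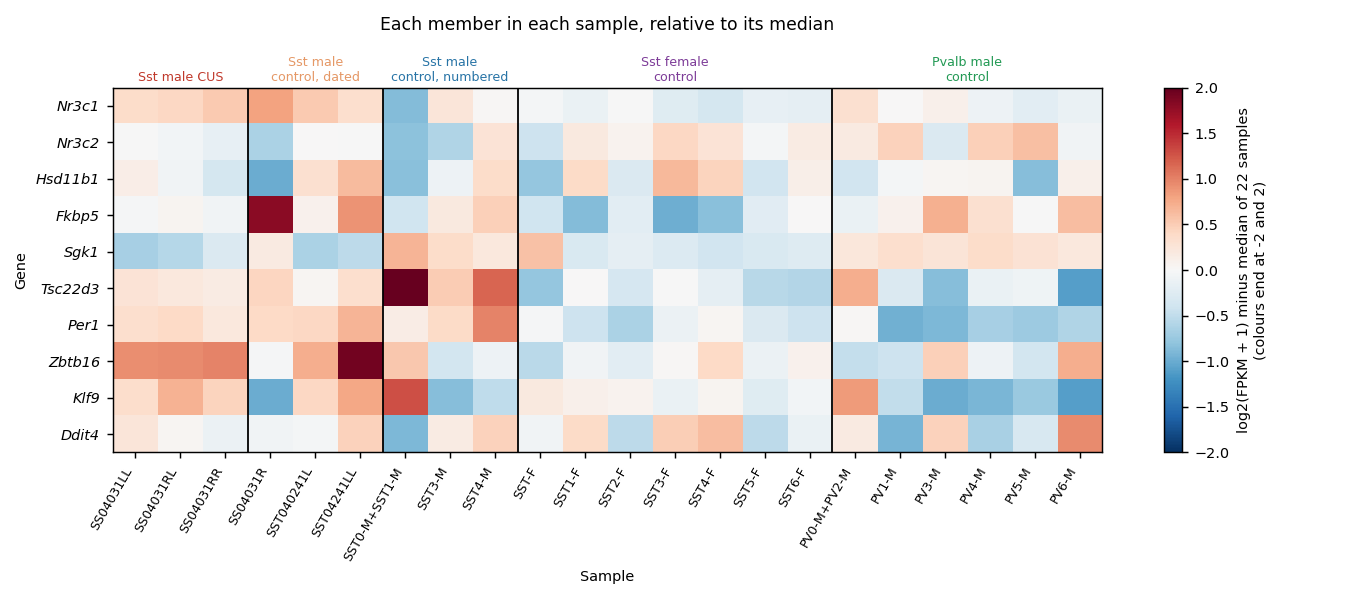
Each member (rows) in each sample (columns, by group) as log2(FPKM + 1) minus the gene's median over the 22 samples, red above and blue below the median. Single samples stand out more than groups: Fkbp5 in SS04031R (25.5 FPKM), Tsc22d3 in SST0-M and SST1-M (320 FPKM, beyond the end of the colour scale) and Zbtb16 in SST04241LL (7.09 FPKM).

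The first comparison asked whether CUS changed the glucocorticoid response genes of male Sst mice, with the 3 CUS libraries set against the 3 dated controls. None of the 10 members was called by limma at an adjusted p of 0.05, where 1 of 14186 genes tested was called (0.00705%), and 956 genes had an unadjusted p under 0.05. The called gene was Slc1a2, a glutamate transporter of astrocytes, at 779 to 851 FPKM in CUS libraries and listed at 0 in all Sst control libraries. In the Pvalb libraries, all unstressed, Slc1a2 was at 741 to 1038 FPKM, and the cause of the values at 0 was not tested. Fkbp5 was the only member whose groups did not overlap, and it was lower after CUS, in a comparison in which 18.7% of genes tested did not overlap between the groups.

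Fkbp5, the feedback co-chaperone, was at 6.50, 6.90 and 6.26 FPKM in SS04031LL, SS04031RL and SS04031RR, and at 25.5, 7.12 and 13.2 FPKM in the controls SS04031R, SST040241L and SST04241LL. The CUS libraries lay close together, just under the lowest control, and the controls differed among themselves 3.58-fold. The log2 fold change (CUS minus control, here and below on the log2(FPKM + 1) scale) was -0.94 ± 0.394 (SE), with a 95% interval of -1.87 to -0.01, an unadjusted p of 0.0476 and an adjusted p of 0.647. Without SS04031R, the library that stood apart, it was -0.51 (adjusted p = 0.489). SS04031R is also the only dated control whose title carries the same number as the CUS titles. Without it, CUS and that number cannot be told apart. Against all 6 male control samples, at 4.75 to 25.5 FPKM, the groups overlapped and it was -0.52 (adjusted p = 0.673), and with the control females added it turned to 0.022 (adjusted p = 0.980).

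The receptors did not differ with CUS beyond the spread of the controls. Nr3c1 was at 36.0, 37.1 and 40.2 FPKM after CUS and at 48.8, 40.2 and 35.1 FPKM in the controls, a log2 fold change of -0.12 (95% interval -0.49 to 0.26). Nr3c2 was at 12.7, 12.2 and 11.2 FPKM after CUS and at 7.89, 12.8 and 12.6 FPKM in the controls, a log2 fold change of 0.14 (-0.34 to 0.61). Both groups overlapped for each receptor. Hsd11b1, at 13.7, 11.8 and 9.49 FPKM after CUS, lay within its control values of 5.73, 15.7 and 19.8 FPKM.

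For the kinase Sgk1, the CUS libraries were at 46.0, 49.2 and 60.4 FPKM and the controls at 84.0, 47.4 and 50.9 FPKM, so that SS04031R alone was higher than the others. Tsc22d3 was at 33.1, 31.5 and 30.3 FPKM after CUS and at 36.7, 27.8 and 34.6 FPKM in the controls, and its interval of -0.40 to 0.30 was among the narrowest of the members. Per1 had an interval of -0.50 to 0.15 about a log2 fold change of -0.18, from 18.2, 19.1 and 16.5 FPKM after CUS and 18.9, 19.2 and 23.2 FPKM in the controls. The 3 genes had overlapping groups throughout. Zbtb16 was at 3.03, 3.10 and 3.22 FPKM after CUS and at 1.10, 2.53 and 7.09 FPKM in the controls. Klf9 was at 19.4, 24.9 and 20.8 FPKM after CUS and at 7.04, 20.4 and 26.3 FPKM in the controls. For both transcription factors the CUS libraries fell between the lowest and the highest control, and the intervals were wide (-1.01 to 1.16 for Zbtb16 and -0.58 to 1.44 for Klf9). Ddit4 was at 8.80, 7.50 and 6.65 FPKM after CUS and at 6.90, 7.09 and 10.4 FPKM in the controls, a log2 fold change of -0.07 (-0.54 to 0.41).

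Against all 6 male control samples, of both title kinds, again none of the 10 members was called. Of all genes tested, 0.00698% were called (1 of 14319, with 1070 genes at an unadjusted p under 0.05) and 7.1% did not overlap between the groups, and no member was among either. The log2 fold changes ran from -0.78 for Tsc22d3 to 0.50 for Zbtb16. Sgk1 was at -0.56 (95% interval -1.27 to 0.15, adjusted p = 0.641). Against the 3 numbered controls alone, Sgk1 was at -0.93 with an adjusted p of 0.0316, but there 2309 genes were called, and CUS and the kind of title cannot be told apart.

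Marker levels of several cell types differed between the CUS libraries and the dated controls. The 12 microglia markers summed to 2721 to 3145 FPKM after CUS and to 3409, 3728 and 7479 FPKM in the controls, the highest in SS04031R. Of the 11 tested, all had lower means after CUS and 8 had groups that did not overlap, where 18.7% of all genes tested did not. The 6 oligodendrocyte markers summed to 1463 to 1805 FPKM after CUS and to 346 FPKM in SS04031R, 978 in SST04241LL and 1170 in SST040241L, and the 5 endothelial markers to 113 to 180 FPKM after CUS and to 15.7, 91.4 and 99.4 FPKM in the same controls. The 6 astrocyte markers summed to 1409 to 1642 FPKM after CUS and to 326, 807 and 755 FPKM in those controls, and 6 of 6 had higher means. Slc1a2 is one of them and is listed at 0 in the controls, and without it the sums were 630 to 791 FPKM after CUS and the same as above in the controls, so that the groups overlapped. The 12 interneuron markers summed to 80.1 to 98.8 FPKM after CUS and to 35.2, 95.4 and 91.4 FPKM in SS04031R, SST04241LL and SST040241L, and of the 7 tested 6 had higher means and 3 had groups that did not overlap. No marker but Slc1a2 was called. The part of these markers in the Fkbp5 values was not tested.

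The kind of title was then compared within unstressed Sst males, 3 dated against 3 numbered samples, since it bears on each comparison that mixes them. The dated samples are also the controls of the first comparison, and the numbered ones are the males of the next. Here 4.11% of genes were called (585 of 14230), and none of the 10 members was; 33.5% of all genes did not overlap between the groups, and so did 3 members. Nr3c1 was higher in dated samples (41.4 ± 6.89 FPKM) than in numbered ones (25.0 ± 9.31), with a log2 fold change of 0.76 ± 0.348 (SE) and an adjusted p of 0.236. Sgk1 was lower in dated samples, at 47.4, 50.9 and 84.0 FPKM against 85.7, 95.3 and 119 FPKM (log2 fold change -0.74 ± 0.321, adjusted p = 0.214). Tsc22d3 was at 27.8, 34.6 and 36.7 FPKM against 38.9, 62.2 and 320 FPKM (-1.46 ± 0.708, adjusted p = 0.261).

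The next comparison was of the sexes in unstressed Sst mice, with 7 females and the 3 numbered male samples, since all female titles are of the numbered kind. Tsc22d3, which encodes GILZ, was the only member called and was lower in females. It was at 15.4 to 27.1 FPKM in females, with a median of 21.3 FPKM, and at 38.9, 62.2 and 320 FPKM in males. All females lay below all males. The log2 fold change (female minus male) was -2.08 ± 0.488 (SE), with an adjusted p of 0.0437. Of all genes tested, 3.41% were called (493 of 14443), and 9.73% did not overlap between the sexes.

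The call of Tsc22d3 was near the threshold and its size depended on 1 sample. Without the pair SST0-M and SST1-M the log2 fold change was -1.19 (adjusted p = 0.0197). Without any 1 of SST1-F, SST2-F, SST3-F, SST4-F, SST5-F or SST6-F the adjusted p was 0.0802 to 0.0905, with log2 fold changes of -2.14 to -2.04, and against all 6 male samples it was 0.0575 (-1.35). With no filter on low values the adjusted p was 0.0570, at the same fold change.

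Per1 was the other member whose sexes did not overlap, at 8.78 to 14.6 FPKM in females (median 11.3) and at 15.7, 18.8 and 29.2 FPKM in males. Its log2 fold change was -0.77 ± 0.218 (SE), with an adjusted p of 0.0688, and against all 6 male samples it was -0.77 with an adjusted p of 0.0174. It also passed the threshold without SST-F (0.0392) or without the pair SST0-M and SST1-M (0.0279). Sgk1 was at 56.1 to 64.9 FPKM in the females other than SST-F, which was at 111 FPKM, and at 85.7, 95.3 and 119 FPKM in males. Its log2 fold change of -0.58 had an adjusted p of 0.137, and without SST-F it was -0.70 with an adjusted p of 0.0131. Fkbp5 was at 2.86 to 6.64 FPKM in females and at 4.75, 7.71 and 9.56 FPKM in males (-0.59, adjusted p = 0.230). With the dated males added, among them SS04031R at 25.5 FPKM, it was -1.01 with an adjusted p of 0.0484.

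The remaining members did not pass the test between the sexes. Nr3c1 had a log2 fold change of 0.05 (95% interval -0.43 to 0.52), with females at 21.2 to 27.4 FPKM inside the male values of 14.6, 27.9 and 32.5 FPKM. Nr3c2 had the larger difference of the receptors, 0.47 (-0.07 to 1.02), at 9.27 to 17.2 FPKM in females and 6.80, 8.02 and 15.6 FPKM in males. Klf9 illustrates the weight of 1 sample: females were at 12.5 to 17.4 FPKM and males at 7.90, 10.3 and 38.3 FPKM, a log2 fold change of 0.02 that became 0.67 with an adjusted p of 0.0348 without SST0-M and SST1-M. Hsd11b1, Zbtb16 and Ddit4 had log2 fold changes of 0.21, -0.08 and 0.13.

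Microglia markers and early genes moved with sex as well. Of the microglia markers, 3 (Cx3cr1, Csf1r and C1qb) were called lower in females. The 12 early genes induced by tissue dissociation summed to 1508 to 5435 FPKM in females and to 3798, 4281 and 7399 FPKM in numbered males, with the highest sum in the pair SST0-M and SST1-M, where Tsc22d3 was highest. All 12 had lower means in females, and Fos and Fosb were called. The part of these genes in the values of Tsc22d3 and Per1 was not tested.

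The last comparison was of 13 unstressed Sst samples (7 females, 3 dated and 3 numbered males) with 6 unstressed Pvalb samples. All Pvalb samples were numbered and labelled male, so sex and title kind differed between these groups along with the cell type label. Per1 was the only member called and was higher in Sst samples, at 8.78 to 29.2 FPKM (16.0 ± 5.81, SD, n = 13), than in Pvalb samples, at 6.80 to 14.3 FPKM (8.98 ± 2.74, n = 6, median 8.32). The groups overlapped, since the females reached down to 8.78 FPKM and the pair PV0-M and PV2-M was at 14.3 FPKM with the next Pvalb sample at 8.98 FPKM. Mean Per1 was 21.2 FPKM in numbered Sst males, 20.5 in dated Sst males, 11.8 in Sst females and 8.98 in Pvalb samples. The log2 fold change (Sst minus Pvalb) was 0.73 ± 0.218 (SE), with an adjusted p of 0.0425. Of all genes tested, 7.8% were called (1133 of 14524) and 0.833% did not overlap, and no member was among the latter.

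The call of Per1 was near the threshold. Without any 1 of SST3-F, SST4-F, SST040241L, SST04241LL, SST3-M, PV1-M, PV3-M, PV4-M, PV5-M or PV6-M the adjusted p was 0.0515 to 0.120, with near-identical libraries kept separate it was 0.0585 (log2 fold change 0.64), with numbered Sst samples alone 0.0783 (0.61), and without the 3 Pvalb libraries with high Xist it was 0.450 (0.58). The direction was the same in each of these.

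Among the other members, Sgk1 was at 85.7 to 95.5 FPKM in Pvalb samples, the tightest values of any member in any unstressed group of 6 or more, and at 47.4 to 119 FPKM in Sst samples (log2 fold change -0.35, 95% interval -0.74 to 0.05). Klf9 was at 0.58 (-0.05 to 1.20, adjusted p = 0.238), and without PV0-M and PV2-M at 0.86 with an adjusted p of 0.0402. Nr3c1 had a log2 fold change of 0.00 with an interval of -0.39 to 0.39, and Nr3c2 was at -0.31 (-0.72 to 0.09). The Pvalb libraries with high Xist were at 18.0, 18.2 and 19.7 FPKM for Nr3c2, and the other Pvalb samples at 10.3 to 14.6 FPKM. The same 3 libraries were lowest of the Pvalb samples for Ddit4, at 3.37, 4.31 and 5.62 FPKM against 8.38, 10.4 and 15.0 FPKM. Endothelial markers moved with the cell type label: 4 of 5 were called higher in Sst samples, and their part in the Per1 difference was not tested.

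**Figure D3:**
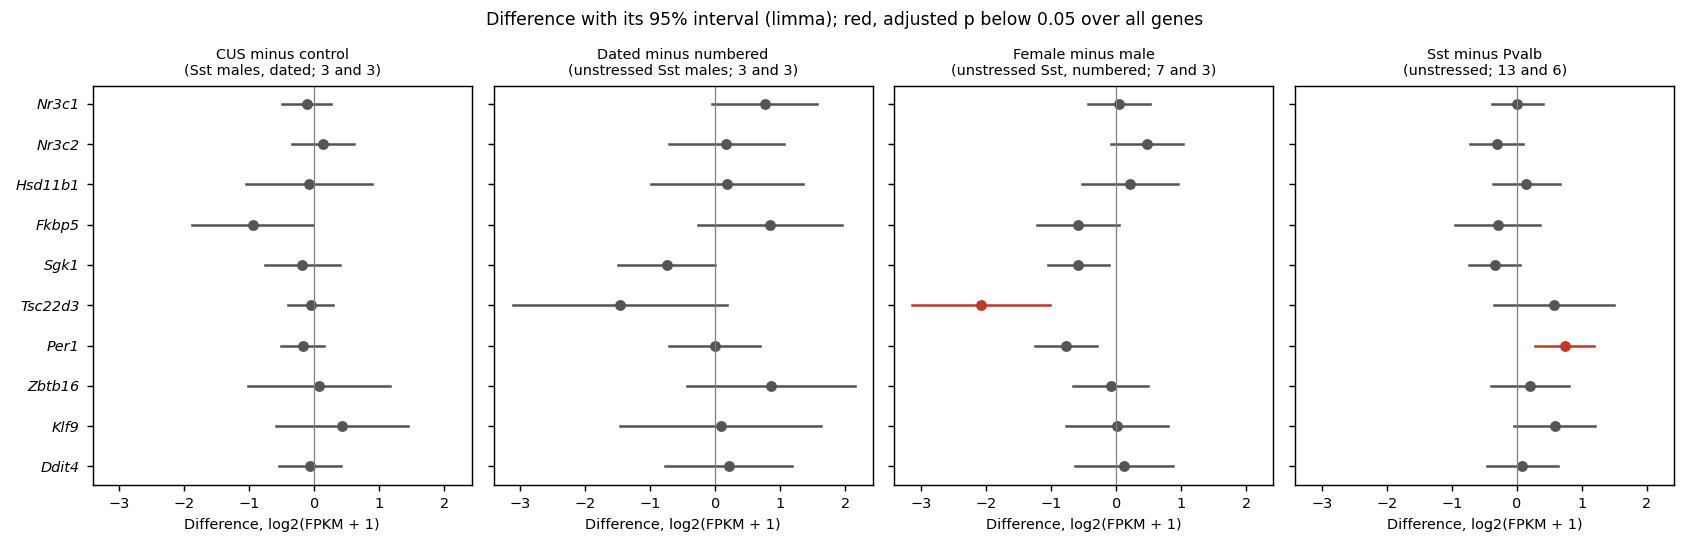
Difference of each member (rows) in log2(FPKM + 1) between groups (horizontal axis), with its 95% interval from limma, in 4 comparisons; red marks an adjusted p under 0.05. Tsc22d3 in females (-2.08) and Per1 in Sst samples (0.73) are the only called members, and no member is called for CUS.

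The wider glucocorticoid pathway was described with lists of genes that are no members. After CUS (dated libraries) none of these genes was called. Of the 11 chaperones and co-chaperones of the receptor, 7 had higher means (on the log2 scale, as for all lists) and 4 had groups that did not overlap, all higher: Hsp90aa1 (314 against 189 FPKM, log2 fold change 0.72), Hsp90ab1 (0.43), Stip1 (0.41) and Fkbp4 (0.28), which is a co-chaperone related to Fkbp5. Of all genes tested, 18.7% did not overlap between these groups. Of the 27 other glucocorticoid-induced genes tested, 22 had higher means, with a median log2 fold change of 0.14. Groups did not overlap for 2 of them that were higher and 2 that were lower. Of the 8 inflammatory genes repressed by glucocorticoids, 7 had higher means, with a median of 0.95 where the median over all genes was 0.00, and the largest were Il1b (1.15), Ccl2 (1.12) and Tnf (1.00), each with an adjusted p of 0.647. For 4 of the 8 the groups did not overlap, all higher. The chaperones and inflammatory genes named here were chosen after their values were seen. Of the 12 early genes, 12 had higher means (median 0.49) and 3 had groups that did not overlap, and the part of the dissociation response was not tested. Against all 6 male control samples the direction of both lists was not kept: 2 of 10 inflammatory genes had higher means (median -0.22, with 0.02 over all genes) and 6 of 12 early genes did (median -0.12). There the chaperones were at 6 of 11 (median 0.09) and the other induced genes at 15 of 26 (median 0.09). Against the dated controls, 2 of the 12 co-regulators of the receptor had higher means (median -0.08), and 3 of the 7 genes of steroid metabolism and export did (median -0.13). There the groups did not overlap for 1 co-regulator, which was lower, and for 1 higher and 1 lower gene of steroid metabolism and export. The 4 genes of the corticotropin-releasing hormone system were below the filter in every comparison.

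Between title kinds and between the sexes, the called genes of these lists were nearly all lower in dated samples or in females. In dated samples, 3 of 25 induced genes were called, all lower: Mt2, a metallothionein (27.5 ± 7.54 against 518 ± 493 FPKM), Dusp1, a phosphatase that turns off MAP kinases (74.6 ± 33.3 against 668 ± 172 FPKM), and Errfi1 (log2 fold change -1.56). Of 10 inflammatory genes, the chemokines Ccl3 (-2.25) and Ccl4 (-2.14) were called lower, and of the chaperones Dnajb1 (-2.06). Of the 12 early genes, 4 were called lower, led by Zfp36 (-2.94), Egr2 (-2.78) and Fosb (-2.53).

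In females, 3 of 11 chaperones were called, all lower than in numbered males: Dnajb1 (33.1 ± 5.69 against 130 ± 42.7 FPKM), Hsp90aa1 (55.2 ± 7.07 against 113 ± 30.8) and Hsp90ab1 (181 ± 15.1 against 345 ± 81.6). Dusp1 (-1.37) and Sult1a1 (-1.28) of 24 induced genes and Icam1 (-1.48) of 10 inflammatory genes were also called lower, and Akr1c14, which reduces steroids, was called higher (0.87), at 1.12 ± 0.227 FPKM against 0.166 ± 0.165. The median of the chaperones was -0.71 and that of all genes 0.05. Between Sst and Pvalb samples, the only called genes of these lists were Abcb1a, the drug efflux pump that exports glucocorticoids at the blood-brain barrier (2.17, 11.0 ± 6.06 against 3.28 ± 6.71 FPKM), and Cebpd, a transcription factor induced by glucocorticoids (1.66), both higher in Sst samples. Of the endothelial markers, Flt1 (2.72), Cldn5 (2.51) and Tek (2.05) were higher as well.

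**Figure D4:**
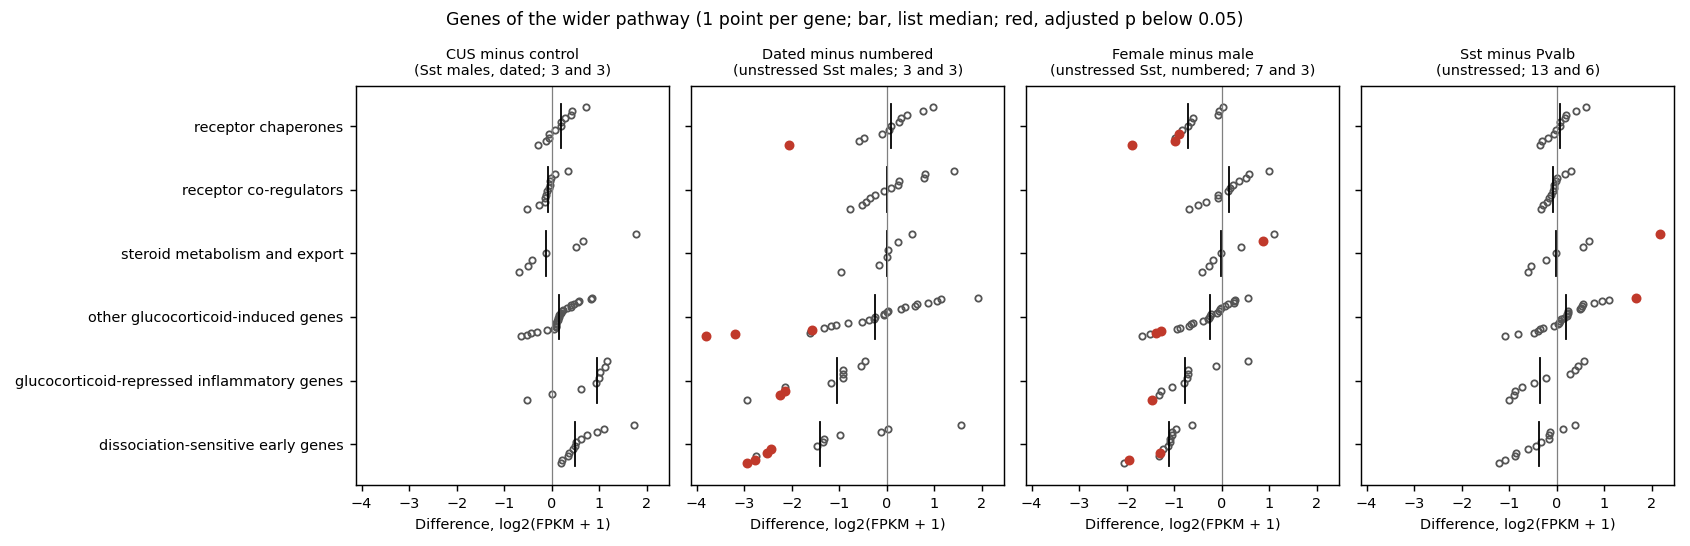
Genes of 6 lists of the wider pathway (rows; 1 point per gene tested) by their difference in log2(FPKM + 1) (horizontal axis) in 4 comparisons; vertical bars are list medians and red points have an adjusted p under 0.05. Red points lie to the left in the comparisons of title kinds and of the sexes, except Akr1c14, and no point is red for CUS.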

How the data were processed

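RNA of tdTomato-positive cells sorted from the mPFC was sequenced after ribosomal depletion (Pico RiboGone), and the authors deposited 1 table of FPKM with 23993 genes by symbol and 24 libraries. The study's methods name TopHat2 with mm9 and, for alignment, HISAT2 with mm10 and StringTie, while the submitters' processing notes name mm10, TopHat2, Cufflinks and Cuffdiff. Samples over 2 SD from their group were eliminated and ComBat was used, but whether the deposited FPKM values were corrected is not stated. The labels hold 30 samples, of which 6 (unstressed Pvalb female and CUS females) were not analysed here.

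Read numbers are not given. Steps in the low values gave a depth of 0.457 to 2.48 relative to SST2-F, which is approximate, since 16.7% to 35.1% of low genes lay at the step, and no counting interval was derived. Pairs of libraries were averaged where their log2 ratios (genes above 5 FPKM) had less than 10% of the SD seen for the second closest pair. Groups came from the labels, and numbered and dated male controls were kept apart. Genes with a mean above 0.4 FPKM in the samples compared were tested on log2(FPKM + 1) with limma 3.58.1 (R 4.3.3; eBayes with trend and robust). Tests were two-sided, p-values were adjusted by Benjamini-Hochberg across every gene tested, and the threshold was 0.05. The procedure was tested on simulated data. Alternatives were the filter, a pseudocount of 0.1, a common median, unaveraged libraries, other controls, leaving out each sample and a replicate block. Python 3.11.15 with pandas 2.3.3 was used for the rest.

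The members were named in every comparison, and from the other lists up to 3 rises and 3 falls past the threshold per list; genes named outside this rule are said to have been chosen after their values were seen. The members and lists were chosen with earlier results of these data known. Replicate numbers were not used to pair the samples in the main tests. Promoters were read from RefSeq, in which 22499 symbols were found. Some results of the marker lists are not reported here, while summed levels hold all genes of a list.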

Additional observations from a re-analysis of the deposited data

Results flagged for a closer look

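A sample far from the rest of its group was found for 4 of 30 combinations of a member and a group of 6 or 7 samples, by the gap to the nearest sample relative to the range on the log2(FPKM + 1) scale, where chance gives about 1 in 20. Tsc22d3 was at 320 FPKM in the average of SST0-M with SST1-M and at 27.8 to 62.2 FPKM in the other male Sst controls. Sgk1 was at 111 FPKM in SST-F and at 56.1 to 64.9 FPKM in the other Sst females. In the averaged pair PV0-M and PV2-M, Klf9 was at 27.9 FPKM against 6.48 to 10.4 FPKM in the other Pvalb samples, and Per1 at 14.3 FPKM against 6.80 to 8.98 FPKM. Fkbp5 in SS04031R (25.5 FPKM) did not meet the criterion among the 6 male Sst controls.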

How the results depend on the processing

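Of 810 values of single members under an alternative, 707 kept their direction and side of the threshold, 23 lost and 10 gained a call and 70 changed sign, none of the latter with a call in the main test. The number of genes called was most affected by single samples. Leaving out each sample in turn gave 1 to 16 genes for CUS against dated controls (16 without SS04031R), 1 to 3 against all male controls, 54 to 1962 for dated against numbered males (1962 without SST0-M and SST1-M, and 54 without SST040241L), 100 to 1787 for sex (1787 without SST-F, and 100 without SST3-M) and 389 to 2130 for Sst against Pvalb (2130 without PV0-M and PV2-M, and 389 without PV5-M). Without the filter, 3 genes were called for CUS against all male controls and 381 for dated against numbered males. With near-identical libraries kept separate these were 3 and 1769, and 2549 for sex. CUS gave 6 genes against controls of both sexes and 2309 against numbered male controls only, sex 1699 against all 6 males, and Sst against Pvalb 14 without the Pvalb libraries with high Xist and 13, an alternative added after the data were seen, with numbered male Sst samples only. The causes were not tested.

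Deviations of same-numbered samples correlated at -0.04, -0.05 and 0.05 for sex and at 0.20, 0.12 and 0.01 for Sst against Pvalb. With 3 pairs in each and no differently numbered pairs set beside them, these values do not settle whether the numbers pair the samples. With a replicate block over these pairs, 11 genes were called for sex and 9 for Sst against Pvalb, and without the block over the same pairs (added after the data were seen) 24 and 10. Neither called member was called over these pairs: the adjusted p of Tsc22d3 for sex (-1.79) was 0.245 with the block and 0.224 without it, and that of Per1 for Sst against Pvalb (1.02) was 0.853 and 0.970. In the paired fit with the replicate block, Nr3c1 (-0.040) and Zbtb16 (0.093) changed sign for sex, and Nr3c1 (-0.31), Hsd11b1 (-0.10), Sgk1 (0.14) and Ddit4 (-0.086) for Sst against Pvalb.

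Changes of sign of log2 fold changes were as follows for the other settings. Per1 between title kinds was at 0.065 with a common median and at 0.081 with libraries kept separate, where Klf9 was at -0.25, and Klf9 for sex at -0.31. For Sst against Pvalb, Nr3c1 was at -0.0015 with a pseudocount of 0.1, and with libraries separate it was at -0.11 and Ddit4 at -0.020. With numbered Sst samples Nr3c1 was at -0.17 and Zbtb16 at -0.0092, and without the Pvalb libraries with high Xist Nr3c1 was at -0.10, Zbtb16 at -0.068 and Ddit4 at -0.50. Against all 6 males, Nr3c1 was at -0.34 and Klf9 at -0.026 for sex. Against controls of both sexes, CUS gave -0.058 for Hsd11b1, 0.022 for Fkbp5 and 0.23 for Per1. Leaving out each sample changed the sign of Nr3c1 (-0.23 to 0.0054), Nr3c2 (-0.072 to 0.24), Hsd11b1 (-0.57 to 0.24), Sgk1 (-0.34 to 0.068), Tsc22d3 (-0.17 to 0.027), Zbtb16 (-0.38 to 0.60), Klf9 (-0.10 to 0.78) and Ddit4 (-0.16 to 0.11) for CUS against dated controls, and of Hsd11b1 (-0.17 to 0.16) and Ddit4 (-0.14 to 0.13) against all male controls. Between title kinds this held for Nr3c2 (-0.048 to 0.50), Hsd11b1 (-0.14 to 0.67), Per1 (-0.19 to 0.23), Klf9 (-0.33 to 0.74) and Ddit4 (-0.20 to 0.48), for sex for Nr3c1 (-0.29 to 0.26), Hsd11b1 (-0.11 to 0.49), Zbtb16 (-0.28 to 0.18), Klf9 (-0.40 to 0.67) and Ddit4 (-0.28 to 0.40), and for Sst against Pvalb for Nr3c1 (-0.067 to 0.072) and Ddit4 (-0.10 to 0.28). Groups of 3 and an unknown depth limit the precision of every value.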
